A study of Rattus norvegicus with 12 samples.

Results

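A set of 10 genes was followed through ischemia-reperfusion injury of the rat kidney, 6 that are grouped here as marks of a dedifferentiated tubule cell (Cd44, Met, Prom1, Cd24, Vim and Dcdc2) and 4 cadherins of the kidney epithelium (Cdh1, Cdh2, Cdh6 and Cdh16). The probes were taken by the gene name printed beside each, and the genes had been listed with earlier results of these kidneys known. They are 10 of the 26442 gene names on the array and have 16 of its 30367 probes, and 14 of these 16 probes passed the filter on dim spots and were tested. The 2 untested probes both belong to Cd44.

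The 12 kidneys came from female F344 rats aged 10 weeks, and each was the left kidney of a rat, hybridised as total RNA labelled with Cy3 on its own array. In 4 rats the left kidney alone underwent ischemia and reperfusion and was collected 3 days later, and in 4 rats it was collected after 7 days. The 4 control rats had a sham operation and were killed after 7 days, so the day 3 kidneys have no sham of their own day. The sources used here give neither the length of the ischemia nor what was done to the right kidney, and they name no transgene and no drug treatment.

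After ischemia, surviving tubule cells flatten, lose their brush border and take up features of the embryonic tubule before they divide and differentiate again. Vimentin filaments, the hyaluronan receptor CD44 and the surface proteins CD24 and prominin-1 are the usual marks of such cells, and Met is the receptor for hepatocyte growth factor. Classical cadherins hold neighbouring cells together through calcium-dependent binding and are tied to actin by catenins. In the kidney, E-cadherin (Cdh1) is best known in distal segments and the collecting duct, N-cadherin (Cdh2) and cadherin-6 (Cdh6) in the proximal tubule, and Ksp-cadherin (Cdh16) along most of the tubular epithelium.

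Every value below is the log2 of the scanner's background-subtracted, processed signal minus the log2 of the same array's 75th percentile, so that 0 marks a probe as bright as the 75th percentile and 1 unit is a doubling. The 75th percentile itself averaged 328 ± 72.6 intensity units over the sham arrays, 714 ± 34.5 over those of day 3 and 502 ± 60.9 over those of day 7 (SD, 4 arrays a group), and each pair of groups differed by a two-sided exact permutation test (p = 0.0286, the smallest that 4 against 4 arrays allow). Between 65.0% and 80.6% of spots on an array were well above background. With this scaling the median of the 21071 tested probes was -0.11 at day 3 and -0.06 at day 7 against sham. Scaling by the total signal in place of the percentile moved these medians by 0.28 and 0.24, and the share of called probes that were higher went from 43.4% to 59.8% at day 3 and from 43.9% to 78.2% at day 7. In the authors' deposited table that share was 55.9% at day 7. The kidney origin of the RNA showed in its segment markers, since all 10 proximal tubule markers and all 8 collecting duct markers were well above background on every array.

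The probes are 60 bases long, and 4 of the 10 genes have more than 1. The sequences below are those of 3 of the 4 Cd44 probes, of both Met probes and of 1 Dcdc2 probe, shown because probes of these genes gave changes of different size or were dim in some groups, and of the vimentin probe, whose day 3 change was the steepest of the genes with a single probe. All are written 5′ to 3′ as given on the array, in lower case throughout because no part of them is singled out. The Cd44 probes follow the minus strand of chromosome 3 in rat build rn4, at chr3:88055398-88055457 (A_64_P130999), chr3:88052458-88052517 (A_64_P130995) and chr3:88041645-88041704 (A_64_P280765).
Cd44 A_64_P130999: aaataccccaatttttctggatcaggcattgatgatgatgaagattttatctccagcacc
Cd44 A_64_P130995: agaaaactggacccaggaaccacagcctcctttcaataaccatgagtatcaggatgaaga
Cd44 A_64_P280765: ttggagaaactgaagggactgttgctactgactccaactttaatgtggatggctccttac
The Met probes lie on the plus strand of chromosome 4, at chr4:43167307-43167366 (A_64_P132487) and at chr4:43202449-43203665 (A_44_P318553). The latter interval spans 1217 bases for a probe of 60, so the probe bridges a stretch of genome absent from the transcript.
Met A_64_P132487: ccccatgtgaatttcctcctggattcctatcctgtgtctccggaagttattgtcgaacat
Met A_44_P318553: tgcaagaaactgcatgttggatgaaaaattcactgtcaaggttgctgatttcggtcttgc
The Vim probe lies at chr17:87851390-87851449 on the plus strand and the Dcdc2 probe shown here at chr17:47015013-47015072 on the minus strand.
Vim A_42_P509365: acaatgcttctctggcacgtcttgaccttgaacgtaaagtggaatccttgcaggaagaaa
Dcdc2 A_44_P440885: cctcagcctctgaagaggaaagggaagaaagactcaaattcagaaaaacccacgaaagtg

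The 3 printed Cd44 probes and another, A_64_P080817 at chr3:88023005-88023064, lie in this order along the transcript's direction, and 29394 bases of genome separate A_64_P130995 from A_64_P080817. The Met probes are 35083 bases apart, the Dcdc2 probes (the other is A_44_P685554 at chr17:46899828-46899887) 115126 bases, and the Prom1 probes (A_64_P020244 at chr14:72230199-72230258 and A_64_P073904 at chr14:72230384-72230443) 126 bases. The remaining genes have 1 probe each, Cd24 at chr20:47507471-47507530, Cdh1 at chr19:36511853-36511912, Cdh2 at chr18:8049328-8049387, Cdh6 at chr2:62548312-62548371 and Cdh16 at chr19:289483-289542, all in rn4. Which exon or untranslated region each probe lies in was not analysed here.

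At day 3 the dedifferentiation genes rose together, while among the cadherins Cdh6 rose, Cdh16 fell and Cdh1 and Cdh2 were not called. Of the 14 tested probes, 11 were higher and 1 was lower than in sham (limma, Benjamini-Hochberg adjusted p below 0.05 over all 21071 probes), where 56.5% of all tested probes were called, 24.5% higher and 32% lower. The 11 higher probes belong to 7 genes, namely Cd44, Met, Prom1, Cd24, Vim, Dcdc2 and Cdh6, and the lower one is Cdh16. The median change of the 14 probes was 1.38. Dcdc2 A_44_P685554 and Cd44 A_64_P080817 passed the filter on dim spots only through the injured kidneys, where they were bright, and with such probes left out 10 member probes were called. In 12 of the 14 probes the 4 day 3 values and the 4 sham values did not overlap, 11 with day 3 above and 1 with day 3 below, a pattern found in 50.9% of all tested probes (22.4% above and 28.5% below). At day 7, 6 probes of 4 genes (Cd44, Cd24, Dcdc2 and Cdh1) were higher than in sham, where 8.05% of all probes were, and none was lower, at an unadjusted p below 0.05 either (18.3% of all probes were called at day 7, 10.3% lower). Among these 6 were Cd44 A_64_P080817 and Dcdc2 A_44_P685554, which had passed the filter only through the injured kidneys. In 6 probes the day 7 and sham values did not overlap, all with day 7 above (Cdh16 in place of Cd44 A_64_P080817), against 21.3% of all probes (9% above, 12.3% below). The median change at day 7 was 0.67. Between day 3 and day 7, 7 probes of 5 genes fell and 1 rose, against 13.6% and 17.1% of all probes (30.8% together). In 6 probes the values of the 2 days did not overlap, 5 lower and 1 higher at day 7, against 35.6% of all probes (17.8% each way). Both comparisons against sham use the same 4 sham arrays. With normexp in place of the scanner's background subtraction, the counts of member probes called against sham went to 7 (day 3) and 1 (day 7) and the count for the 2 days against each other to 1. Over all probes the same setting brought the calls from 11903 to 3428, from 3866 to 92 and from 6480 to 176. At day 3 both Cd44 probes, both Dcdc2 probes and Cdh16 then lost their calls. When the 5 to 25 spots below their local background on 6 of the arrays were left out of normexp, the counts were 11, 6 and 10.

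**Figure D1:**
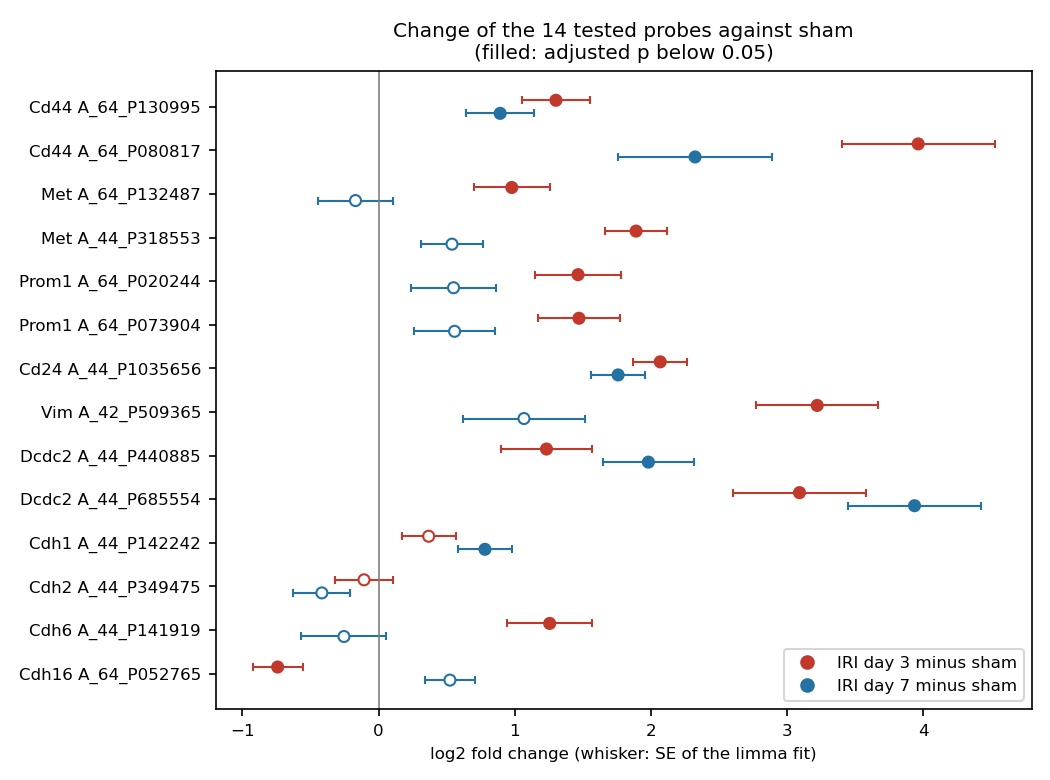
Log2 fold change against sham (x axis) of each of the 14 tested probes (y axis) at day 3 (red) and day 7 (blue), with the standard error of the limma fit as whiskers and filled points where the adjusted p is below 0.05. At day 3 all points but those of Cdh1 and Cdh2 are filled, and Cdh16 is the only filled point to the left of 0; the Dcdc2 A_44_P685554 values rest on a sham signal not well above background and are fitted values.

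CD44 is a transmembrane receptor for hyaluronan and osteopontin, and its transcript is spliced in many forms through a block of variable exons. The probe A_64_P080817 read -3.67, -4.16, -2.47 and -5.60 in the sham kidneys, where only 2 of the 4 arrays were well above background. It read -0.09, -0.05, -0.48 and 0.59 at day 3 and -1.16, -1.88, -0.95 and -2.60 at day 7. All 4 day 3 kidneys lay above all others, while the lowest day 7 kidney lay just under the highest sham kidney. The change was 3.96 ± 0.56 (SE; limma, adjusted p = 0.000137) at day 3 and 2.33 ± 0.56 (adjusted p = 0.0159) at day 7, with sham values partly in the background. From day 3 to day 7 it fell by 1.64 (adjusted p = 0.0449), a call that held only without sham replicate 3 or 4 or day 7 replicate 3 among the 12 omissions of 1 array (values from -1.87 to -1.32).

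The Cd44 probe A_64_P130995 was well above background on all 12 arrays. It read -2.12, -2.31, -2.72 and -2.52 in sham, -0.72, -1.17, -1.79 and -0.77 at day 3, and -1.60, -1.52, -1.09 and -1.89 at day 7. The injured kidneys of both days lay above every sham kidney and overlapped each other. It rose by 1.30 ± 0.25 (limma, adjusted p = 0.00104) at day 3 and by 0.89 ± 0.25 (adjusted p = 0.0302) at day 7. The day 7 call ended when sham replicate 3 or 4 or day 7 replicate 1, 2 or 3 was left out, with values from 0.75 to 1.01 and adjusted p from 0.0146 to 0.087 over the 12 omissions. The other 2 Cd44 probes, A_64_P130999 and A_64_P280765, were well above background on 0 of 4 sham, 3 of 4 day 3 and 0 of 4 day 7 arrays. Neither was tested, and their sham and day 3 values overlapped. Taken within each array, the difference between A_64_P130995 and A_64_P080817 changed by -2.66 log2 units from sham to day 3 (two-sided exact permutation p = 0.0286, adjusted p = 0.0571 over 12 such differences, a family chosen after the probes had been seen). The adjusted value misses the threshold, and only 2 sham arrays measured A_64_P080817 above background.

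Met, the receptor tyrosine kinase for hepatocyte growth factor, rose at day 3 and fell again between day 3 and day 7 in both probes. The probe A_44_P318553 read -0.66, -1.05, -1.54 and -0.87 in sham, 0.92, 0.90, 0.67 and 0.97 at day 3, and -0.56, -0.66, 0.11 and -0.84 at day 7. No day 3 kidney overlapped any other kidney. The change was 1.89 ± 0.23 (limma, adjusted p = 5.03e-05) at day 3 and 0.54 ± 0.23 (adjusted p = 0.12) at day 7, and the fall between the days was 1.35 (adjusted p = 0.00221). Under total-signal scaling the day 7 difference passed at 0.78 (adjusted p = 0.0407).

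The probe A_64_P132487 showed the same order with a smaller rise. It read 0.71, 1.003, 0.55 and 0.82 in sham, 1.89, 1.59, 1.42 and 2.09 at day 3, and 0.58, 0.70, 1.33 and -0.21 at day 7. The lowest day 3 kidney stayed above the highest sham and day 7 kidneys. It rose by 0.98 ± 0.28 (limma, adjusted p = 0.0102) at day 3, fell by 1.15 (adjusted p = 0.0112) from day 3 to day 7, and differed from sham at day 7 by -0.17, with a 95% interval from -0.77 to 0.44. Within arrays the difference between the Met probes changed by -0.91 at day 3 and by -0.71 at day 7 (exact permutation p = 0.0286 and adjusted p = 0.0571 for both). The exact tests over 4 against 4 arrays cannot go below p = 0.0286, and neither change passed after adjustment over the 12 differences between probes of 1 gene.

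**Figure D2:**
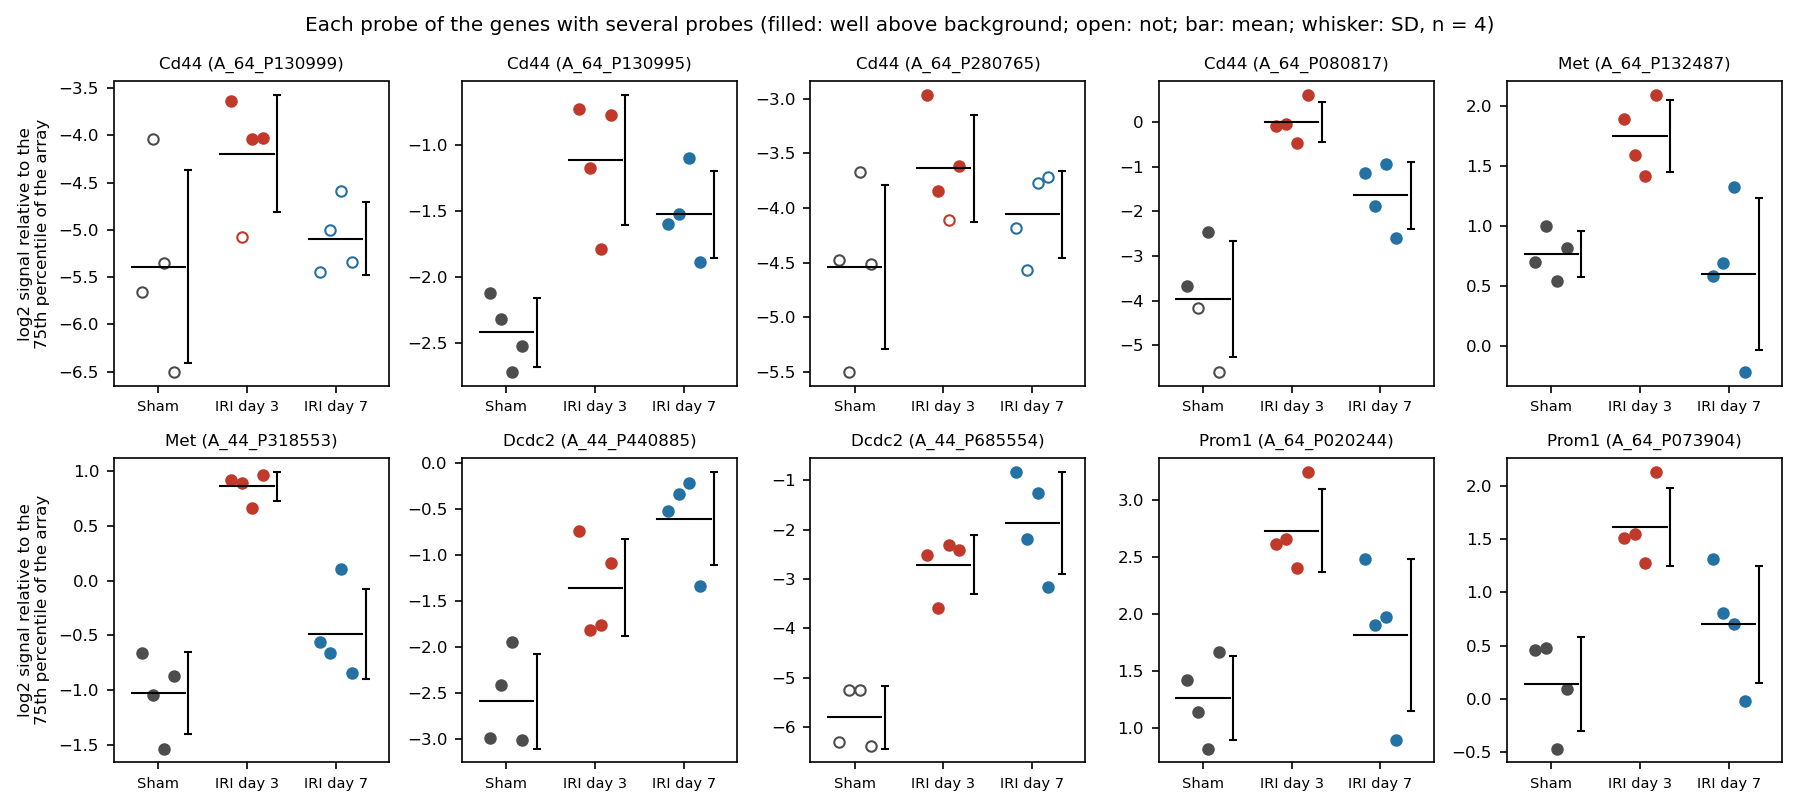
Log2 signal relative to each array's 75th percentile (y axis, own range per panel) for each probe of Cd44, Met, Dcdc2 and Prom1 in sham, day 3 and day 7 kidneys; points are arrays, filled where the probe was well above background, bars are means and whiskers SD (n = 4). Cd44 A_64_P130999 and A_64_P280765 have open points in all sham and day 7 arrays, and the Prom1 panels show the same pattern in both probes.

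Prominin-1, a pentaspan membrane protein of cell protrusions that marks scattered tubular cells, was measured alike by its neighbouring probes. A_64_P020244 read 1.43, 1.15, 0.82 and 1.67 in sham, 2.62, 2.66, 2.40 and 3.25 at day 3, and 2.49, 1.90, 1.98 and 0.90 at day 7. A_64_P073904 read 0.46, 0.48, -0.46 and 0.10 in sham, 1.51, 1.54, 1.27 and 2.13 at day 3, and 1.31, 0.80, 0.71 and -0.02 at day 7. In both probes the day 3 kidneys lay above all sham kidneys, and day 7 overlapped both other groups.

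Prom1 rose at day 3 by 1.47 ± 0.32 and 1.47 ± 0.30 (limma, adjusted p = 0.00208 and 0.00144). At day 7 it differed from sham by 0.55 ± 0.32 and 0.56 ± 0.30 (adjusted p = 0.245 and 0.214), and both probes were 0.91 lower than at day 3 (adjusted p = 0.0455 and 0.0373). The fall from day 3 to day 7 missed the threshold in 8 and 6 of the 12 fits that left out 1 array, in both probes when day 3 replicate 1, 2 or 4 or day 7 replicate 2, 3 or 4 was left out and in A_64_P020244 also without sham replicate 1 or 2. It ranged from -1.14 to -0.61 and from -1.12 to -0.67, and without day 7 replicate 4 the day 7 change of A_64_P020244 passed at 0.86 (adjusted p = 0.0428).

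CD24, a small glycoprotein anchored in the outer membrane by a lipid and often used with prominin-1 to sort tubular progenitor-like cells, stayed high through day 7. It read 3.54, 3.55, 3.52 and 3.96 in sham, 5.72, 5.47, 5.92 and 5.74 at day 3, and 5.65, 5.05, 5.81 and 5.09 at day 7. Every injured kidney of either day was more than 1 log2 unit above the highest sham kidney. The rise was 2.07 ± 0.20 (limma, adjusted p = 1.37e-05) at day 3 and 1.76 ± 0.20 (adjusted p = 0.000373) at day 7. The days differed by -0.31, with a 95% interval from -0.74 to 0.12 and an adjusted p of 0.248. Within the 3 array slides, each of which held all 3 groups, the day 3 rise was between 1.95 and 2.18.

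Vimentin, the intermediate filament protein of mesenchymal cells and of dividing tubule cells, rose steeply at day 3 and fell again by day 7. It read -0.49, -0.62, 0.27 and -0.07 in sham, 3.05, 3.28, 1.96 and 3.69 at day 3, and 1.30, 1.04, 1.51 and -0.48 at day 7. All day 3 kidneys lay above all others, and at day 7 replicates 1 to 3 lay above every sham kidney while replicate 4 lay within the sham range. The rise at day 3 was 3.22 ± 0.45 (limma, adjusted p = 0.00012), with 2.24 to 3.99 within the slides. The fall from day 3 to day 7 was 2.15 (adjusted p = 0.00575). At day 7 the difference from sham was 1.07 ± 0.45 (adjusted p = 0.117) over the 4 kidneys and 1.51 (adjusted p = 0.0191) without replicate 4.

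Day 7 replicate 4 also had the lowest day 7 values of Cd44, of both Met probes, of both Prom1 probes, of both Dcdc2 probes, of Cdh1 and of Cdh6. The same kidney had the highest sum of proximal tubule markers at day 7, 298 multiples of the 75th percentile against 145, 237 and 148 in the other 3, and the lowest sum of fibroblast markers, 60.9 against 83.4, 82.9 and 74.8. At day 3, replicate 3 had the lowest values of Vim, Met, Prom1, Cdh6 and both tested Cd44 probes and the highest proximal tubule sum, 116 against 57.7, 53.6 and 30.9. Unlike day 7 replicate 4 it had the highest fibroblast sum of its group, 138 against 97.7, 91.7 and 106. The array of day 3 replicate 3 was the only one of its group on its slide and in its scan batch. For this replicate the kidney, the slide and the scan therefore cannot be told apart. Both replicates also had the dimmest array of their group. The 75th percentile was 422 intensity units for day 7 replicate 4, against 534, 492 and 562 in replicates 1 to 3. It was 665 for day 3 replicate 3, against 732, 715 and 743 in the others. Their shares of spots well above background, 67.1% and 73.3%, were the lowest of their groups as well. The part of such differences between kidneys or arrays in the results was not tested.

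DCDC2 carries doublecortin domains that bind microtubules and is a protein of primary cilia, known in the kidney from inherited ciliary disease. It was above sham on both days in both probes. A_44_P440885 read -2.99, -2.41, -1.94 and -3.01 in sham, -0.74, -1.82, -1.76 and -1.09 at day 3, and -0.52, -0.34, -0.22 and -1.34 at day 7. The injured kidneys of both days lay above all sham kidneys. The rise was 1.23 ± 0.33 (limma, adjusted p = 0.00778) at day 3 and 1.98 ± 0.33 (adjusted p = 0.00289) at day 7, and the difference between the days, 0.75, did not pass (adjusted p = 0.104) except without day 7 replicate 4 (0.99, adjusted p = 0.0496).

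The probe A_44_P685554 was not well above background on any sham array, where it read -6.31, -5.25, -5.25 and -6.39. It read -2.52, -3.59, -2.31 and -2.42 at day 3 and -0.83, -2.18, -1.26 and -3.17 at day 7, well above background on all 8 arrays. The signal was at least 2.39-fold higher than sham at day 3 and at least 4.30-fold higher at day 7, bounds that set the sham kidneys at the lowest signal counted as above background. The limma fit gave adjusted p = 0.000283 and 0.00068, but these rest on sham values within the background and on a probe that passed the filter through the injured kidneys alone. With normexp the day 3 differences of the Dcdc2 probes were -0.11 and -0.26, and for A_44_P685554 0.45 (adjusted p = 0.131) without the spots below local background.

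**Figure D3:**
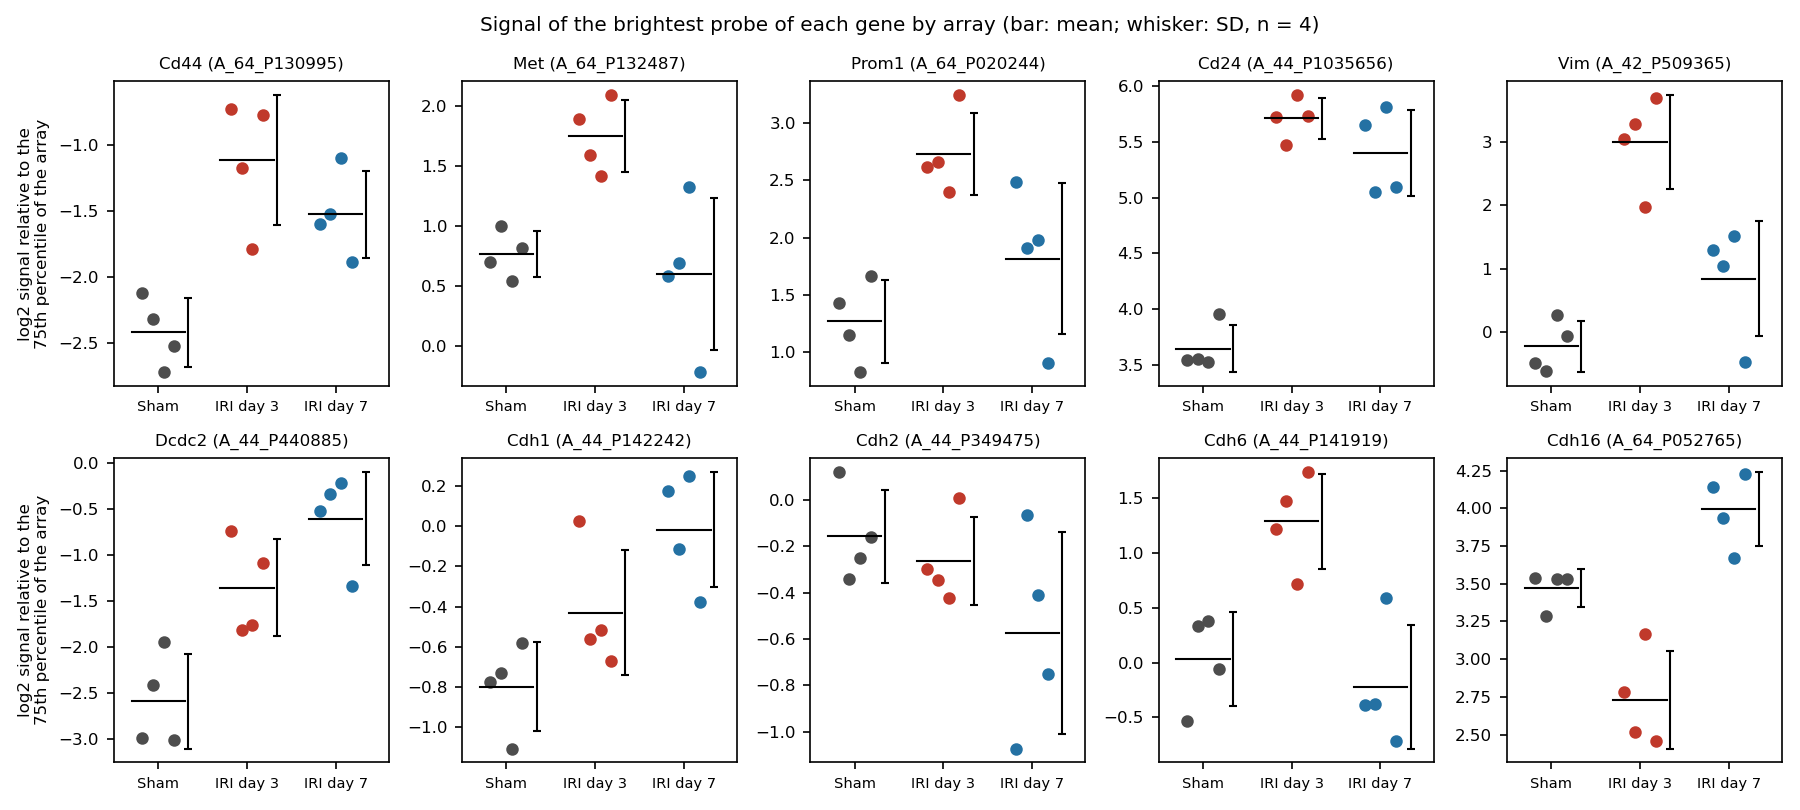
Log2 signal relative to each array's 75th percentile (y axis, own range per panel) of the brightest probe of each of the 10 genes in sham, day 3 and day 7 kidneys; points are arrays, bars means and whiskers SD (n = 4). Cd24 and Dcdc2 stayed above sham at day 7, Met and Cdh6 peaked at day 3, and Cdh16 dipped at day 3 and lay above sham at day 7.

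The calls differed among the 4 cadherins, although no difference between 2 of them within an array passed after adjustment, as given below. Cdh6, a type II cadherin of the embryonic renal vesicle and the proximal tubule, rose at day 3 and returned. It read -0.54, 0.34, 0.38 and -0.06 in sham, 1.22, 1.47, 0.72 and 1.74 at day 3, and -0.38, -0.38, 0.59 and -0.72 at day 7. The day 3 kidneys lay above all others. The rise was 1.26 ± 0.31 (limma, adjusted p = 0.00497), the fall to day 7 was 1.51 (adjusted p = 0.00551), and at day 7 the difference from sham was -0.25, with a 95% interval from -0.93 to 0.43.

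Cdh16, an atypical cadherin with a short cytoplasmic tail that is nearly restricted to kidney epithelium, moved the other way. It read 3.54, 3.28, 3.53 and 3.53 in sham, 2.78, 2.52, 3.16 and 2.46 at day 3, and 4.14, 3.94, 3.67 and 4.23 at day 7. The 3 groups did not overlap, with day 3 lowest and day 7 highest. It fell at day 3 by 0.74 ± 0.18 (limma, adjusted p = 0.00485) and rose by 1.27 from day 3 to day 7 (adjusted p = 0.00111). The day 7 excess over sham was 0.52 ± 0.18 and missed the threshold (adjusted p = 0.0667). It passed under total-signal scaling (0.76, adjusted p = 0.0126), quantile normalisation (0.58, adjusted p = 0.0418), the authors' deposited table (0.60, adjusted p = 0.043), normexp without the spots below local background (0.60, adjusted p = 0.0212) and without day 3 replicate 3 (adjusted p = 0.0421).

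Cdh1, the E-cadherin of adherens junctions, was higher at day 7. It read -0.78, -0.73, -1.11 and -0.58 in sham, 0.03, -0.56, -0.51 and -0.67 at day 3, and 0.18, -0.12, 0.25 and -0.38 at day 7. All day 7 kidneys lay above all sham kidneys, while 1 of the 4 day 3 kidneys lay within the sham range. The day 7 rise was 0.78 ± 0.20 (limma, adjusted p = 0.02), lost without day 7 replicate 1 or 3 (0.72 and 0.69, adjusted p = 0.0582 and 0.0612). At day 3 the difference was 0.37 ± 0.20 (adjusted p = 0.134), with a 95% interval from -0.07 to 0.80, and it passed under total-signal scaling at 0.64 (adjusted p = 0.0231).

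Cdh2, N-cadherin, passed in no comparison. It read 0.12, -0.34, -0.25 and -0.16 in sham, -0.30, -0.35, -0.42 and 0.01 at day 3, and -1.07, -0.06, -0.41 and -0.75 at day 7. The 3 groups overlapped, with 2 day 7 kidneys below every other. The difference from sham was -0.11 at day 3 (limma, adjusted p = 0.684; 95% interval -0.56 to 0.35) and -0.42 at day 7 (adjusted p = 0.187; 95% interval -0.87 to 0.04). The day 3 value turned to 0.17 under total-signal scaling.

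The difference between a pair of cadherins within an array does not depend on the scaling between arrays. Cdh6 minus Cdh16 changed by 1.998 from sham to day 3 and by -2.78 from day 3 to day 7, and Cdh1 minus Cdh16 by 1.11 from sham to day 3. Cdh1 minus Cdh2 changed by 1.20 from sham to day 7, and Cdh2 minus Cdh16 by -0.94. In each of these 5 changes the groups did not overlap and the two-sided exact permutation p was 0.0286. Of 18 such changes tested, over 6 pairs and 3 comparisons, 9 reached that smallest p, and none passed 0.05 after Benjamini-Hochberg adjustment (adjusted p = 0.0571 for the 9).

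**Figure D4:**
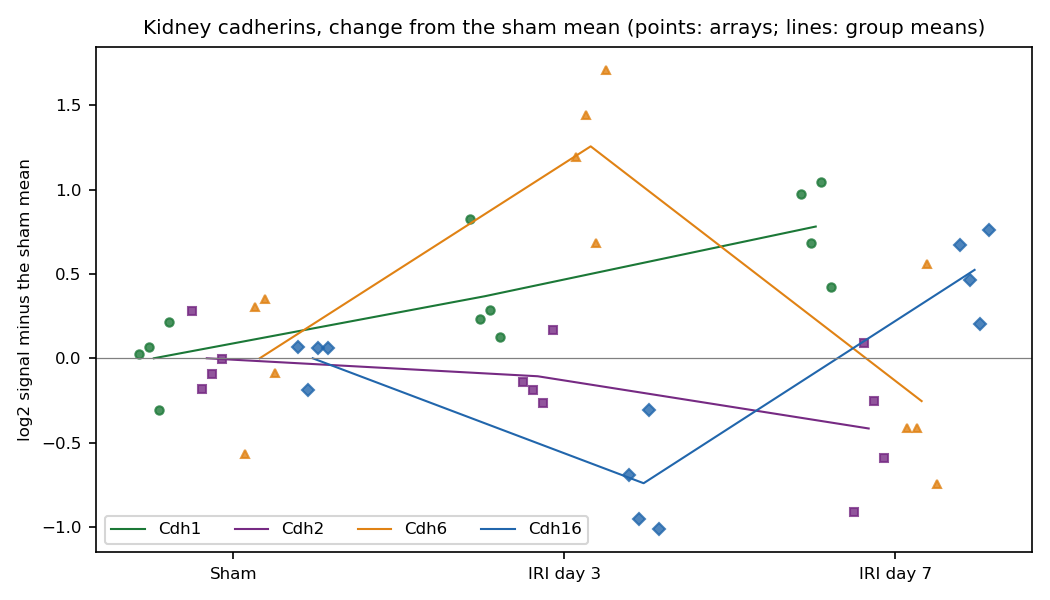
Log2 signal minus the sham mean of the same gene (y axis) for Cdh1, Cdh2, Cdh6 and Cdh16 in sham, day 3 and day 7 kidneys (x axis); points are arrays and lines join group means (n = 4). Cdh6 is highest and Cdh16 lowest at day 3, and Cdh1 and Cdh16 are the genes above 0 at day 7 in all 4 kidneys.

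Whole kidneys hold many cell types, so a lower signal from fewer cells of a type and from less RNA per cell cannot be told apart. Vim and Cd44 are also made by leukocytes and fibroblasts, and Cd24 by leukocytes. The summed signal of the 16 leukocyte markers ran from 5.87 to 8.10 multiples of the 75th percentile over the sham kidneys, from 16.9 to 19.0 over the day 3 kidneys and from 11.2 to 13.8 over the day 7 kidneys. Over all tested genes, each by its brightest probe, 24.1% were called higher than sham at day 3 and 8.05% at day 7. Of the 12 tested leukocyte markers 6 rose at day 3 and 3 at day 7, among them Ptprc, the common leukocyte antigen CD45, by 2.11 and 1.07 (limma, adjusted p = 7.41e-05 and 0.0199). The macrophage protein Cd68 rose by 2.70 and the lipopolysaccharide co-receptor Cd14 by 2.10 at day 3 (adjusted p = 0.00141 and 0.00052). Cd68 was well above background on only 3 of the 4 sham arrays, so that it passed the filter through the injured kidneys. Ms4a1, which defines B cells, was well above background on no array. For the 11 fibroblast markers the sums ran from 17.99 to 31.1, from 91.7 to 138 and from 60.9 to 83.4 in the same order of groups. Of 10 tested, 9 rose at day 3 and 7 at day 7, with Fn1 (fibronectin) at 3.27, Col1a1 at 2.45 and Col3a1 at 2.42 at day 3 (adjusted p = 1.68e-05, 3.09e-05 and 9.54e-06). Postn, the matrix protein periostin, was well above background on no sham or day 7 array. The part of these cells in the Vim, Cd44 and Cd24 results was not tested.

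Markers of the tubule segments in which the cadherins are known moved too. Over all tested genes, each by its brightest probe, 33% were called lower than sham at day 3 and 10.5% at day 7. Between the days, 17.9% were called higher at day 7 than at day 3. The proximal tubule sum of 10 genes ran from 379 to 402 over the sham kidneys, from 30.9 to 116 over the day 3 kidneys and from 145 to 298 over the day 7 kidneys, with 8 of 10 lower at day 3 and 2 at day 7. The thick ascending limb sum ran from 50.7 to 66.3, from 2.78 to 7.72 and from 26.5 to 37.6 in the same order. Of its 5 markers, 4 were called lower and 1 higher at day 3. At day 7, 1 was called higher than in sham and none lower, while 3 were lower at an unadjusted p below 0.05 (limma). The collecting duct sum ran from 23.4 to 43.2, from 7.74 to 11.8 and from 44.6 to 58.0, and all 8 of its markers were lower at day 3 and higher at day 7 than at day 3. The distal tubule sum was 14.2 to 18.2, 2.86 to 4.18 and 21.01 to 26.5, so that every day 7 kidney lay above every sham kidney in this sum and in that of the collecting duct. By gene, 1 of 4 distal markers was called higher at day 7 than in sham and none lower, and 1 of 8 collecting duct markers was called higher and 1 lower. Endothelial markers, with a sum of 23.3 to 29.8, 12.1 to 16.6 and 11.3 to 23.5, had 5 of 8 genes called lower at day 3 and 4 at day 7. Podocyte markers, with 14.6 to 18.8, 4.19 to 5.33 and 5.82 to 12.3, had 3 of 5 called lower at day 3 and 2 at day 7. The part of the segments in the cadherin results was not tested.

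**Figure D5:**
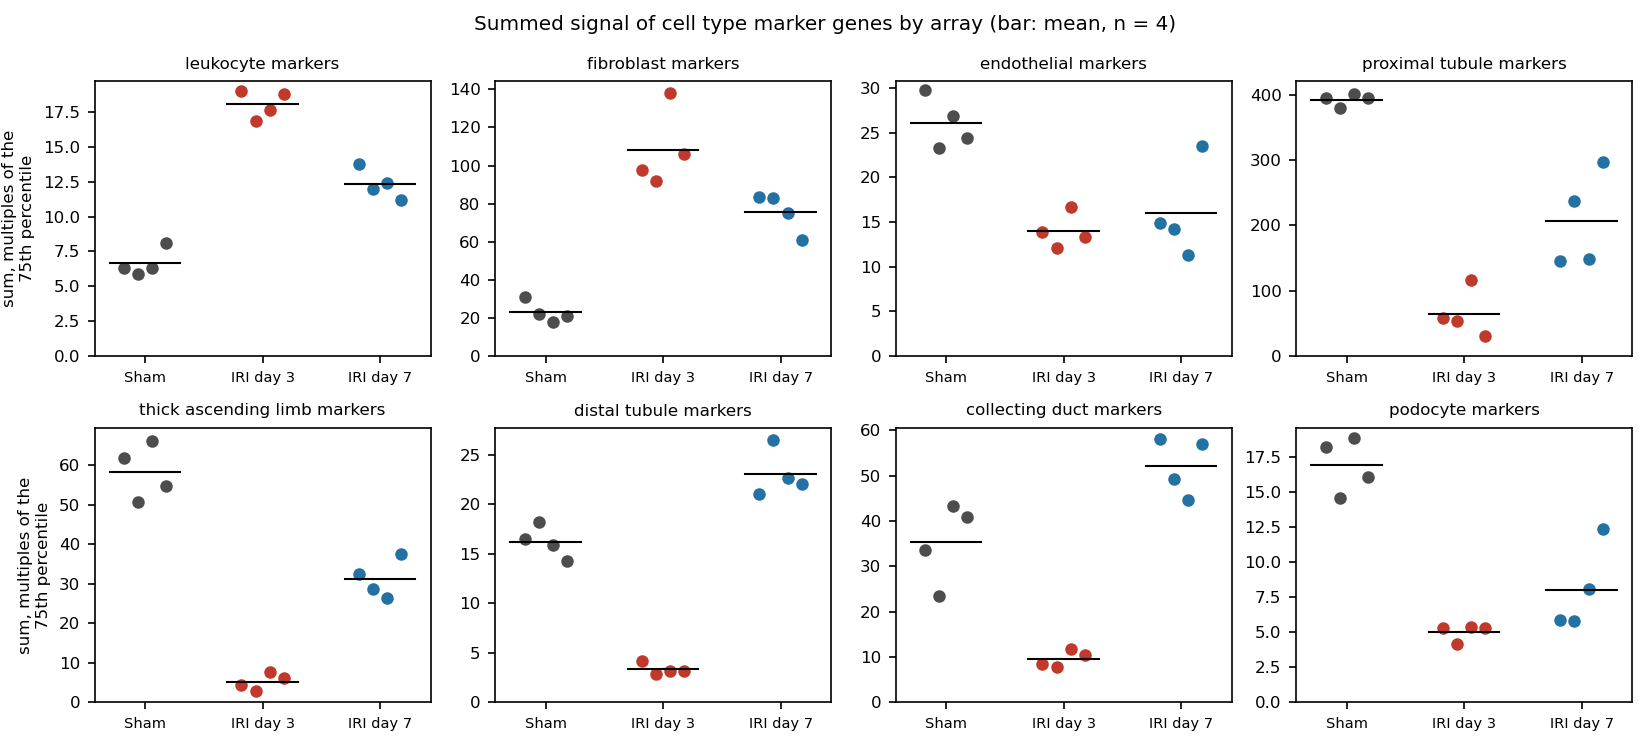
Sum of the signals of each list of cell type markers, in multiples of the 75th percentile of the array (y axis, linear from 0, own range per panel), in sham, day 3 and day 7 kidneys; points are arrays and bars means (n = 4). Leukocyte and fibroblast sums are highest at day 3, the tubule sums lowest at day 3, and the distal tubule and collecting duct sums at day 7 lie above all sham arrays.

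Genes that act with the members were read from 8 lists, with the brightest probe standing for each gene. Over all genes by that rule, 24.1% were higher and 33% lower than sham at day 3, and 8.05% and 10.5% at day 7. Of the 83 listed genes tested, 37 were higher and 14 lower at day 3, and 18 higher and 4 lower at day 7. Among those higher at day 3, F11r, Spp1, Krt8 and Ncam1 were well above background on 3 of the 4 sham arrays. Snai2, Aldh1a2 and Mmp7 were so on 2 and Hmmr on 0. These genes passed the filter on dim spots only through the injured kidneys. Has1, called lower at day 3, passed only through the sham kidneys. The counts of the lists include all of them.

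Of 12 adherens junction partners, 5 rose and 1 fell at day 3, with a median of 0.37, and none was called at day 7, where 2 were higher at an unadjusted p below 0.05 (limma). The junctional adhesion molecule F11r rose by 1.60 ± 0.34, Nectin2 by 1.47 ± 0.37 and vinculin (Vcl), which links catenins to actin, by 1.42 ± 0.29 (limma, adjusted p = 0.00182, 0.00498 and 0.0016). Afadin (Afdn), the partner of nectins, fell by 0.998 ± 0.18 (adjusted p = 0.000702) in its brightest probe, and by no call in its other probe, which read 0.21. At day 7 that other probe was called higher than sham (0.52), while the brightest read -0.30 without a call. Of 7 other cadherins 2 rose and 2 fell at day 3. P-cadherin (Cdh3), a classical cadherin, rose by 1.53 ± 0.25 at day 3 and by 1.12 ± 0.25 at day 7 (adjusted p = 0.000327 and 0.0108). R-cadherin (Cdh4) rose by 0.72 at day 3, and Cdhr2, a protocadherin of the brush border, and Cdh13, which lacks a transmembrane domain, fell by 1.15 and 0.55 (adjusted p = 0.0403, 0.00667 and 0.0222). The other Cdh13 probe read 0.19 at day 3 and 1.003 at day 7, without a call.

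Among 6 tested transcription factors that repress cadherin genes, 1 rose and 1 fell at day 3, and likewise at day 7. Snai2, known as Slug, gave 1.76 ± 0.31 and 1.47 ± 0.31 (limma, adjusted p = 0.00061 and 0.0091), with only 2 of the 4 sham arrays well above background, so that it passed the filter through the injured kidneys. Snai3 fell by 0.92 at day 3 (adjusted p = 0.00215), and Zeb1 fell by 0.70 at day 7 (adjusted p = 0.0466). Tcf3 was not called in its brightest probe at day 3 (0.39), but its other probe was called higher (1.45). Snai1 and Twist1 did not pass the filter on dim spots.

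Of 13 genes of the hepatocyte growth factor and Met pathway, 4 rose and 3 fell at day 3, with a median of 0.46, and 3 rose at day 7. Matriptase (St14), which activates the growth factor precursor, rose by 1.12 ± 0.22 and 1.23 ± 0.22 (limma, adjusted p = 0.00112 and 0.00378), and hepsin (Hpn), another such protease, fell by 1.53 ± 0.27 at day 3 (adjusted p = 0.00052). Stat3, a transcription factor downstream of Met and of cytokine receptors, rose by 0.98 and 1.38 (adjusted p = 0.00423 and 0.00318), and the adaptor Shc1 by 0.87 at day 3 (adjusted p = 0.00568). The ligand Hgf, named here as the ligand and after its values were seen, differed by 0.56 ± 0.36 and 0.35 ± 0.36 (adjusted p = 0.201 and 0.538). It was well above background on all 4 day 3 arrays but on only 3 sham and 2 day 7 arrays. These differences thus rest partly on values within the background.

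Of 12 partners of CD44 and hyaluronan, 4 rose and 4 fell at day 3, with a median of 0.07. Osteopontin (Spp1), a CD44 ligand, rose by 7.29 ± 0.37 at day 3 and 7.08 ± 0.37 at day 7 (limma, adjusted p = 8.84e-07 and 5.02e-06). Hmmr, a hyaluronan receptor with a role at the mitotic spindle, was not well above background in sham and was at least 3.69-fold higher at day 3. Radixin (Rdx), which ties CD44 to actin, rose by 1.40 ± 0.20 (adjusted p = 0.000139) in its brightest probe and read 0.17, without a call, in the other, and the hyaluronidase Hyal1 fell by 2.06 ± 0.61 (adjusted p = 0.0131). The sham kidneys of Hyal1 stood apart from each other at 0.82, 0.90, 3.12 and 3.50, against 0.31, -0.01, -0.00 and -0.21 at day 3.

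Of 10 intermediate filament genes beside Vim, 7 rose and 1 fell at day 3, with a median of 0.91. The simple epithelial keratins Krt18, Krt8 and Krt19 rose by 2.16, 2.14 and 1.90 (limma, adjusted p = 4.94e-05, 0.0023 and 0.000976), and the linker protein plectin (Plec) by 1.47 (adjusted p = 0.000286). At day 7 Krt18 was 1.84 above sham (adjusted p = 0.00121), and Krt8 differed by 0.52 (adjusted p = 0.472). Of 13 other genes of the dedifferentiated tubule, chosen with results of these kidneys known, 9 rose at day 3 and 6 at day 7, and none fell at either time, at an unadjusted p below 0.05 either. Havcr1, the kidney injury molecule, was at 6.41 and 2.53, Anxa2 at 4.12 and 2.18, Klf6 at 2.85 and 1.65, and Sox4 at 2.70 and 1.81 (adjusted p from 4.81e-06 to 0.0138). Of 10 proteases and inhibitors that act on the shedding of surface proteins, 5 rose and 2 fell at day 3. Timp1, Mmp2 and Mmp14 rose by 3.405, 2.08 and 1.44, and Timp3, an inhibitor of sheddases bound to the matrix, fell by 1.61 (adjusted p = 1.09e-05, 5.95e-05, 0.000834 and 4.99e-05).

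The genes whose course over the 12 kidneys was closest to each member were taken by the root mean square difference between profiles, each centred on its own mean, among 9853 genes above background on every array. All kidneys are shared by the profiles, and the values are a description. Cd24 lay closest to Col4a1, a basement membrane collagen (0.21 log2 units), then Tsc22d1 and Lgals3bp, where the median gene lay at 1.04. Met lay closest to Inava (0.20), Nfkb1, a subunit of NF-kappaB, and Prrg4, and Cd44 A_64_P130995 to Rtca (0.20), the class I antigen RT1-A1 and Tmem176a. Prom1 lay closest to Ruvbl1 (0.27), Tpm2 and Slc12a9, and Vim to Arl4c (0.37), the spindle checkpoint gene Mad2l1 and Nrm. Dcdc2 had no close match, with Rab15 (0.43), Ctsd and the St14 named above as nearest. Among the cadherins, Cdh6 lay closest to Lrrcc1 (0.27), Rpsa and B4galt1, and Met was its 12th nearest gene at 0.33, the closest approach of any pair of members. Cdh16 lay closest to Cnnm3 (0.17), Mavs and Galt, Cdh1 to Spast (0.21) and Zdhhc23, and Cdh2 to Tmem167b (0.15), Atp2b1 and Ccdc127.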

How the data were processed

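Each of 12 kidneys was hybridised to a 1-colour Agilent array, read with Agilent Feature Extraction 9.5.1.1 against build rn4, per the file headers; the labels name the same software. The deposited scanner files hold the processed signal as intensity, with background subtracted by the scanner software, and quality flags per spot; RNA mass, ischemia time and chip lot are not given in the sources used here. The authors' deposited value table is on a log2 scale, and its columns correlate with the scanner values at r of at least 0.998 after probe centring; it is centred on each probe's median (largest absolute median 4.8e-07), direction as the signal, scaling between arrays unknown. Its column medians were -0.00, -0.03, 0.30 and 0.01 in sham replicates 1 to 4, -0.11, -0.16, 0.00 and -0.21 at day 3, and 0.01, 0.04, 0.01 and 0.12 at day 7.

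Of 42877 spots other than controls, outlier-flagged ones were set aside, spots of a probe averaged, and log2 values taken relative to the array's 75th percentile. A probe was tested if every array of 1 or more groups had it well above background, which 21071 probes met. Groups were compared with limma 3.58.1 in R 4.3.3 (1 mean per group, all 12 arrays, two-sided, Benjamini-Hochberg over tested probes, threshold 0.05). In simulated data of this size the fit recovered 45% of changes of 1 log2 unit and 86% of changes of 2, with 2.24% false calls. Far fewer probes were changed there than the 56.5% called at day 3, so these rates need not hold for the data. Of the probes, 17998 were named through accessions in RefSeq, 2359 by symbol and 615 by synonym, and 9395 kept the array's name. Sequences are those of the array design; the sequence tables from RefSeq were not used. Of 168 listed genes 167 had a probe and 145 were tested. Among 34 listed genes with several tested probes, none was called in both directions in any comparison.

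The arrays came from 3 slides, each with all 3 groups, scanned in 2 batches. Replicate numbers shared by groups did not pair the rats (correlation of deviations from -0.33 to 0.14 over 12 pairs, 2 of them over 0.1). The labels count each array as 1 rat. The number of arrays limits the precision. Members and gene lists were chosen with earlier results of these data known. Named from each list were up to 4 genes with the largest change among those called against sham, up to 3 marker genes, and for each member the 3 genes of most similar profile. One of the genes this rule names is not reported here. Alternatives were total-signal and quantile scaling, normexp background with an offset of 50, the authors' table, other filters, 1 probe per gene, blocks for slide, scan and replicate number, 2-group fits, and omission of each array.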

Additional observations from a re-analysis of the deposited data

Results flagged for a closer look

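Among 42 groups of 4 values (14 tested probes in 3 groups), 3 held a kidney far from the other 3, and chance gives about 1 group in 20. Cd24 read 3.96 in sham replicate 4, with the next sham kidney at 3.55. Cdh16 read 3.28 in sham replicate 2, with the next at 3.53. Dcdc2 A_44_P685554 read -3.59 in day 3 replicate 2, with the next at -2.52.

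The change against sham differed between day 7 and day 3 in 8 probes, tested as the direct contrast of the days (limma, adjusted p below 0.05). The day 7 change was lower by 2.15 for Vim, which gave the difference -2.15, and the difference was -1.64 for Cd44 A_64_P080817, -1.51 for Cdh6, -1.35 and -1.15 for the Met probes A_44_P318553 and A_64_P132487, and -0.91 for both Prom1 probes. Cdh16 alone had a higher value at day 7, by 1.27.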

How the results depend on the processing

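The member probes called at day 3 numbered 12, and 12 in each of the 12 omissions of 1 array; at day 7 they numbered 6 (4 to 8 in omissions) and between the days 8 (5 to 8). Over the other alternatives the day 3 count was 7 to 13, with 13 under total signal and with no filter, 11 under normexp without low spots, 10 for probes above background on all arrays and 8 with 1 probe per gene. Listed genes numbered 51 (46 to 51), 22 (16 to 22) and 21 (9 to 25, with 9 without day 3 replicate 4, 10 without day 7 replicate 4 and 13 without day 3 replicate 2). Under normexp background the member counts were 7, 1 and 1 and the listed genes 16, 2 and 2; 5 to 25 spots on each of 6 arrays lie below their local background, and without them under the same method 37 of 42 probe results kept their side. Between the days 5 member probes were called with no filter, with 1 probe per gene, with slide as a block and with the replicate block. Normexp turned the sign for Dcdc2 at day 3 (-0.11 and -0.26), Cdh1 at day 3 (-0.076), Cd44 A_64_P130995 at day 7 (-0.013) and Met A_64_P132487 at day 7 (0.072), of which the Cdh1 and Met values were not called before. Total signal turned Cdh2 at day 3 to 0.17 and Met A_64_P132487 at day 7 to 0.067, and omission of day 7 replicate 4 turned the latter to 0.10, its range over omissions being -0.41 to 0.10. The cause was not tested. The replicate block changed 4 of 42 probe results, Cd44 A_64_P130995 at day 7 (0.89, adjusted p = 0.0594) and 3 falls between the days (adjusted p from 0.0507 to 0.0774). Within single slides all 78 values of the called results kept their sign. That sign was fixed in advance wherever the groups did not overlap, and the results were chosen by calls on these same arrays. The count is therefore no separate check on the slides. Some results without a call changed sign between slides, such as Cdh2 at day 3 (-0.40 to 0.20). Signals near background limit the folds of Cd44 and of Dcdc2 A_44_P685554.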
